A study of Mus musculus with 12 samples.

Results

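Running was compared with rest in gastrocnemius, the main calf muscle, of WT mice. The comparison set 3 exercised libraries (Exe_WT replicates 3, 4 and 5) against 3 sedentary ones (Sed_WT replicates 1, 3 and 4). Every gene with at least 10 counts in 3 or more of these 6 libraries was described, which were 13998 of the 43432 genes in the count table. The WT mice were male fl/fl littermates, that is, floxed animals without the deletion that gives the cFeimin muscle knockout (MKO) group. Sedentary WT mice had not run, and exercised WT mice were taken after 90 min on a run at 60% of maximal speed. MKO libraries (3 Sed_MKO and 3 Exe_MKO) carried the cFeimin deletion and entered the model and 1 side comparison. The age, the Cre line and its promoter, the time from run to sampling, feeding and the hour of sampling are not stated in the labels used here. A difference in sampling hour between the groups therefore cannot be told apart from the run. The study as titled is about what cellular Feimin does for endurance and for heat made by muscle.

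Contracting muscle raises calcium, cyclic AMP and stress kinase signals, which switch on immediate-early genes, a set transcribed without new protein synthesis. Many of these encode transcription factors of the NR4A and AP-1 families, which in turn act on genes for fuel use, growth and repair. Gastrocnemius consists mostly of fast fibres, and its connective tissue, vessels, nerves and resident immune cells add their own RNA to a bulk sample.

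The 6 WT libraries held 14428971 to 14557502 counts each, so their depth was nearly equal. Between 20.1% and 24.3% of them came from mitochondrially encoded genes, with no separation of the groups. On the first principal component, with 49.4% of the variance, the sedentary libraries lay at -33.6 to -28.6 and the exercised ones at 28.4 to 34.9. The tissue label held against its markers. Skeletal muscle genes were abundant in every library, with 375974 to 467610 counts of Acta1 (skeletal actin), 268344 to 375917 of Ckm (muscle creatine kinase) and 295875 to 479870 of Myh4 (the fastest myosin). T cell gene Cd3e had 0 to 2 counts, B cell gene Cd79a 0 to 3 and the adipocyte gene Lep 0 to 16, and none of them was tested. Genes listed for these cell types were not all absent, however. The adipocyte genes Adipoq and Cfd had 10 to 50 and 68 to 153 counts, and 10 tested adipocyte genes summed to 1814.5 to 2504.1 CPM per library. Adipoq and Cfd made up little of that sum. The 1 tested gene of the lymphocyte list had 45.8 to 138 CPM. Which cells gave the RNA of these lists was not tested. Blood content was uneven: the haemoglobin gene Hba-a1 had 7533 counts in Sed_WT replicate 3 and 1822 to 3320 in the other WT libraries. The labels do not say that replicates came from separate animals. A p-value therefore measures the spread among libraries and nothing wider, and that spread may be technical. The spread was estimated over all 12 libraries of the model, MKO ones included, and not over the 6 WT libraries alone.

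After running, 611 of 13998 genes were higher (4.36%) and 584 lower (4.17%) at a Benjamini-Hochberg adjusted p under 0.05 in edgeR's quasi-likelihood test, 1195 in all (8.54%). The counts of each gene list below are to be read beside these shares of 4.36% and 4.17%. A count near them is no result about the list. The rises were larger than the falls. More than 2-fold changes that passed numbered 341 up and 235 down (4.11% of all genes together), more than 4-fold changes 120 and 30, and more than 8-fold changes 53 and 5. Gene positions are those of GENCODE M21 on GRCm38. Levels are normalised CPM (library-size scaled counts), given for the sedentary libraries in the order 1, 3, 4 and for the exercised ones in the order 3, 4, 5. Differences are log2 fold changes of exercised minus sedentary ± SE, and each p is adjusted over all 13998 genes. The highest library of one group lay below the lowest of the other for 3843 genes (27.5%), among them 609 of the 611 higher and 581 of the 584 lower genes. For a gene that passed, groups without overlap therefore add little to the call. They were also required of the genes named as the largest changes. Scaling by total counts alone moved the median of all genes by -0.10 (log2) and gave 1347 calls, of which 35.3% were higher, against 51.1% with the scaling used here. The lower calls fell to 339 without Sed_WT replicate 3, 343 without Exe_WT replicate 3 and 389 without Exe_WT replicate 4.

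**Figure D1:**
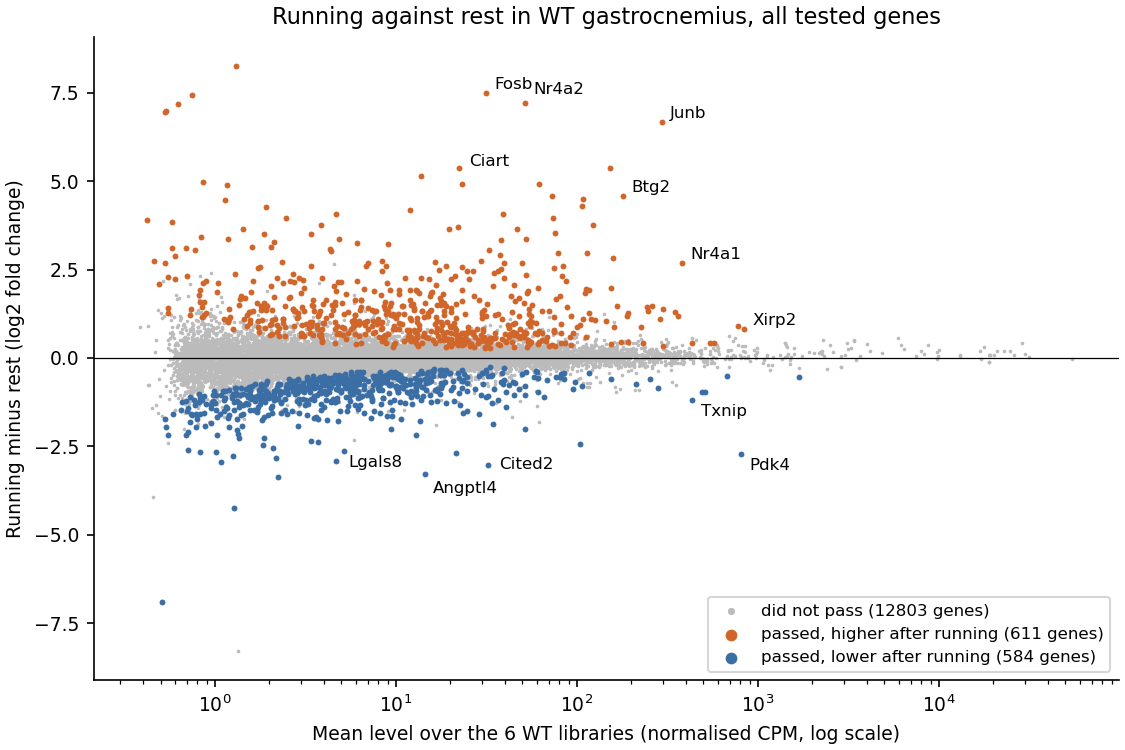
Each point is 1 of the 13998 tested genes, with its mean level over the 6 WT libraries (normalised CPM, log scale) against its log2 fold change of running minus rest. Orange points are the 611 genes that passed as higher, blue points the 584 that passed as lower, and grey points did not pass. Junb, Nr4a2 and Fosb lie at 6.67, 7.22 and 7.49, and Pdk4 at -2.70.

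The NR4A orphan nuclear receptors, which bind DNA without a known hormone and respond to exercise in muscle, rose together. Nr4a2 (chr2:57106830-57124003, minus strand) stood at 0.824, 0.669 and 0.549 CPM at rest and at 96.8, 85.7 and 125 CPM after running, 7.22 ± 0.36 (adjusted p = 9.01e-07). Nr4a3 (chr4:48045153-48086447, plus strand) went from 8.52, 3.74 and 9.20 to 266, 283 and 344 CPM, 5.38 ± 0.44 (adjusted p = 3.5e-05). Nr4a1 (chr15:101254269-101274795, plus strand) was already abundant at rest, at 155, 68.1 and 84.1 CPM, and reached 659, 662 and 650.1, 2.68 ± 0.32 (adjusted p = 0.000311). In none of the 3 receptors did the groups overlap, as in nearly all genes that passed, and Sed_WT replicate 1 had the highest resting level of Nr4a1. Of the 8 tested members of the list of NR4A receptors and corepressors, 5 were higher and none lower, with a median of 0.93 against 0.00 for all genes.

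Genes of AP-1, the dimer of FOS and JUN family proteins, mostly rose. Of 12 tested AP-1 factors 10 were higher and 1 lower, with a median of 3. Fosb (chr7:19302696-19310051, minus strand) had 0.137, 0.201 and 0.686 CPM at rest and 67.5, 55.2 and 65.9 after running, 7.49 ± 0.61 (adjusted p = 2.99e-05). Junb (chr8:84974484-84978718, minus strand), a family member that can restrain JUN, went from 7.08, 5.82 and 4.25 to 581, 658 and 507 CPM, 6.67 ± 0.44 (adjusted p = 6.77e-06). Fosl2, which encodes FRA2, rose from 10.9, 9.09 and 7.55 to 194, 209 and 222 CPM, 4.50 ± 0.26 (adjusted p = 3.63e-06). These 3 genes were far apart between the groups in every library. Jun itself went the other way, from 166, 96.0 and 108 to 61.7, 70.4 and 69.4 CPM, -0.88 ± 0.18 (adjusted p = 0.00881), and its groups did not overlap either. Among the others, Fos rose by 4.08 ± 0.66 (adjusted p = 0.00231), Atf3, a stress-induced repressor, by 3.65 ± 0.57 (adjusted p = 0.00192), and the small MAF genes Maff and Mafk, partners of NRF2, by 4.58 ± 0.45 (adjusted p = 9.89e-05) and 2.35 ± 0.21 (adjusted p = 5.76e-05).

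**Figure D2:**
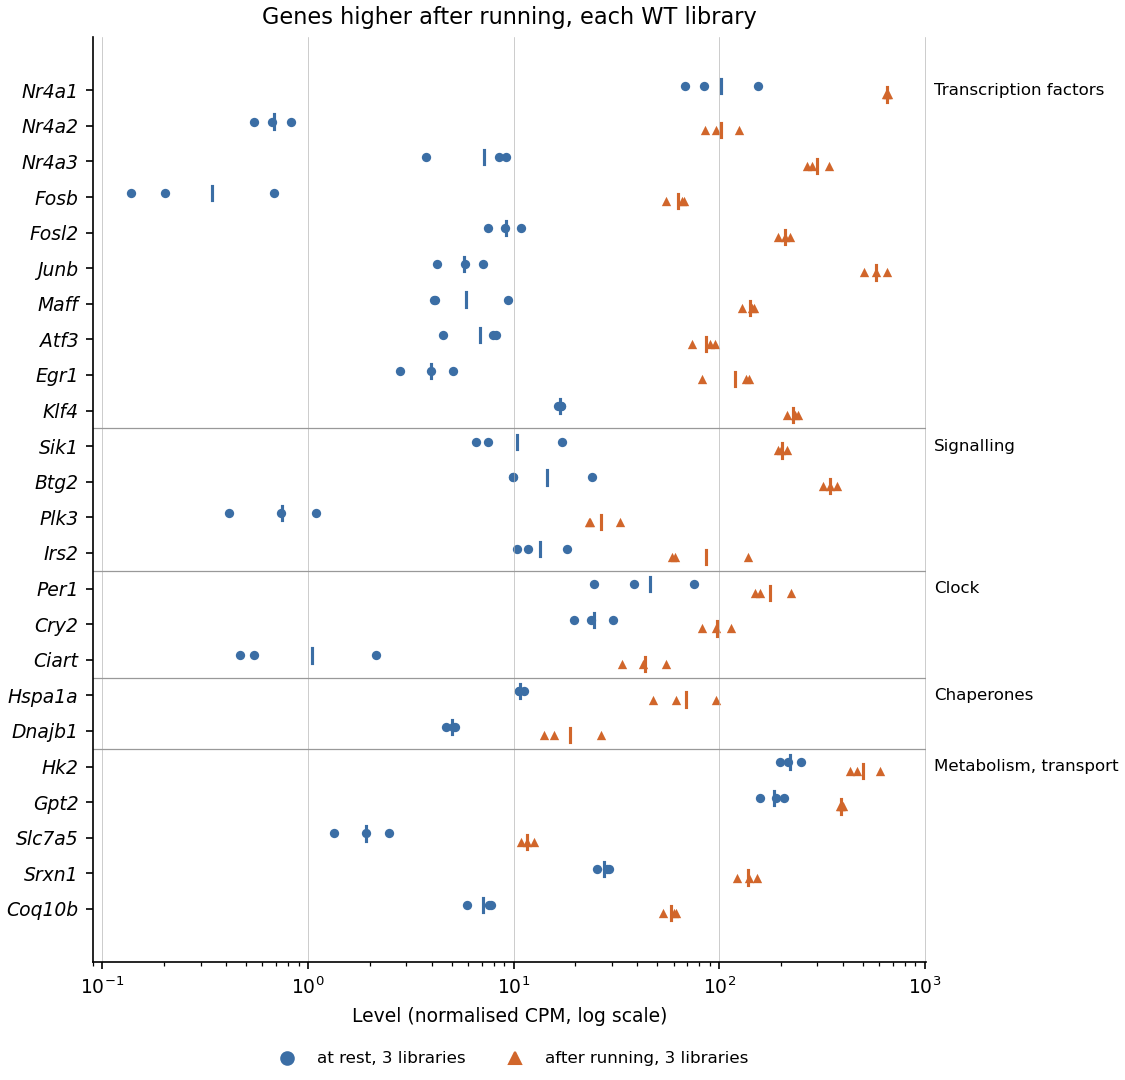
Level of 24 genes that passed as higher, on a log axis of normalised CPM. Blue circles are the 3 sedentary WT libraries, orange triangles the 3 exercised ones, and short bars their means. No pair of groups overlaps, as for 609 of all 611 genes that passed as higher. Nr4a2 goes from at most 0.824 to at least 85.7 CPM.

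Other immediate-early and feedback genes rose with less uniformity. In the list of EGR genes, serum response factor targets and other immediate-early genes, 8 of 22 tested members were higher and none lower (median 0.39, or 0.24 with a filter of 1 CPM in 3 WT libraries). Egr1, a zinc finger factor that is not a member of that list, went from 2.82, 5.08 and 3.98 to 140.1, 82.9 and 135 CPM, 4.91 ± 0.37 (adjusted p = 1.75e-05). Csrnp1, a nuclear protein gene, rose by 3.64 ± 0.40 (adjusted p = 0.0002) and Ier5l by 2.68 ± 0.32 (adjusted p = 0.000321). Zfp36, whose product (tristetraprolin) destabilises AU-rich messages, rose by 2.55 ± 0.35 (adjusted p = 0.000859). Myc, a regulator of growth, and Srf, the serum response factor itself, had 0.25 ± 0.19 (adjusted p = 0.521) and 0.15 ± 0.09 (adjusted p = 0.386). Among the Kruppel-like factors 3 of 13 were higher and 1 lower, led by Klf4 at 16.5, 17.1 and 16.9 CPM at rest and 242, 233 and 213 after running, 3.77 ± 0.52 (adjusted p = 0.000784).

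Several genes that brake proliferation rose. The growth arrest and DNA damage list had 7 of 18 members higher and 1 lower (median 0.48). Btg2 (chr1:134075170-134079120, minus strand), an antiproliferative cofactor of mRNA deadenylation, went from 24.0, 9.96 and 9.88 to 375, 319 and 345 CPM, 4.57 ± 0.40 (adjusted p = 5.02e-05), and had its highest resting value in Sed_WT replicate 1. Plk3, a polo-like kinase, rose from 1.10, 0.736 and 0.412 to 23.6, 32.8 and 23.4 CPM, 5.13 ± 0.55 (adjusted p = 0.000164), and its relative Plk2 by 1.63 ± 0.25 (adjusted p = 0.00167). The cell cycle inhibitor Cdkn1a (p21) rose by 1.69 ± 0.23 (adjusted p = 0.000806). Feedback on MAP kinases was split, with 2 of 17 phosphatase and Sprouty genes higher and 4 lower. The lower ones numbered 1 without Sed_WT replicate 3 and 2 without Exe_WT replicate 3 or 4, and the higher ones 1 without Sed_WT replicate 1 or Exe_WT replicate 3. Dusp1, which dephosphorylates stress kinases, rose by 1.82 ± 0.31 (adjusted p = 0.0031) and shares 11 exon bases with Ergic1. Spry1, an inhibitor of growth factor receptors, had 21.6, 21.9 and 22.2 CPM at rest and 8.56, 9.40 and 9.97 after running, -1.23 ± 0.10 (adjusted p = 2.99e-05), with narrow groups that lay well apart.

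Genes of the cyclic AMP pathway gave 6 of 20 members higher and none lower (median 0.19, or 0.10 without Exe_WT replicate 5). Sik1 (chr17:31844250-31855804, minus strand), a salt-inducible kinase that holds CREB coactivators and class IIa deacetylases in check, went from 17.2, 6.55 and 7.55 to 194, 200.01 and 215 CPM, 4.28 ± 0.34 (adjusted p = 2.69e-05). Crem, the CREB relative that yields the repressor ICER, rose by 2.23 ± 0.22 (adjusted p = 9.15e-05). Rgs2, which shortens G protein signals, rose by 1.80 ± 0.33 (adjusted p = 0.0053), and the orphan receptor Gprc5a by 3.35 ± 0.37 (adjusted p = 0.000204).

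Promoter sequences were read for these genes, to show which known elements stand before them. RefSeq windows of 300 bases (250 before and 50 after each start, GRCm38.p6) were matched for 9415 tested genes with 12098 promoters, and both strands were searched. The full cyclic AMP response element TGACGTCA was in 3% of all promoters, 7.2% of those of higher genes, 6.67% of those more than 4-fold higher and 1.32% of those of lower genes. Its first 5 letters, TGACG, which every full element also holds, were in 30.9%, 42.4%, 48.6% and 20.2% of the same sets. The clock and MYC E-box CACGTG was in 9.99%, 13.2%, 20% and 7.34%, and the AP-1 site TGAGTCA in 3.64%, 5.83%, 8.57% and 5.08%. The heat shock element GAANNTTC was in 5.65% of all promoters, 6% of those of higher genes, 5.71% of those more than 4-fold higher and 7.72% of those of lower genes. The CArG box of serum response factor was in 1.37%, 2.06%, 0.952% and 0.753%. These shares are descriptions without a test. The stretches below hold the element in capitals and lie upstream of the start, 5′ to 3′ on the gene's strand. All of them come from genes that rose. Genes that fell hold such elements too, such as an E-box in Cited2, Kcnj2 and Lipe. The first 5 are genes with a full cyclic AMP element, of which Dusp1 also holds an E-box after it; then follow 3 with an E-box, Ciart having 3 of them; 1 chaperone gene with a heat shock element; and Srxn1 with 2 AP-1 sites.
Btg2, CRE, chr1:134079284-134079351, minus strand: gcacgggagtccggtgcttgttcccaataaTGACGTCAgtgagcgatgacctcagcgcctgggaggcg
Dusp1, CRE, chr17:26508578-26508645, minus strand: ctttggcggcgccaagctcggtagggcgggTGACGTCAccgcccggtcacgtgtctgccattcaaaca
Maff, CRE, chr15:79347451-79347519, plus strand: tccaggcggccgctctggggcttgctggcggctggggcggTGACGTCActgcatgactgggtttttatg
Plk2, CRE, chr13:110394952-110395019, plus strand: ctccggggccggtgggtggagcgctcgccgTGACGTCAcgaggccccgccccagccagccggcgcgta
Errfi1, CRE, chr4:150854989-150855056, plus strand: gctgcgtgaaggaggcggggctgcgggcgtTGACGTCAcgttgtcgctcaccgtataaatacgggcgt
Ciart, E-box, chr3:95882253-95882364, minus strand: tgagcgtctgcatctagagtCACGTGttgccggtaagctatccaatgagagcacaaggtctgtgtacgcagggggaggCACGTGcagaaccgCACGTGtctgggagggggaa
Mnt, E-box, chr11:74830771-74830836, plus strand: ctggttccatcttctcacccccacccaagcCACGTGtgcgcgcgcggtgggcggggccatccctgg
Per1, E-box, chr11:69098753-69098818, plus strand: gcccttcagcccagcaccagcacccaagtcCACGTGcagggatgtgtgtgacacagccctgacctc
Hspa1a, heat shock element, chr17:34972223-34972290, minus strand: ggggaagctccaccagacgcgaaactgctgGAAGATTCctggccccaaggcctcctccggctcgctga
Srxn1, AP-1, chr2:152105402-152105505, plus strand: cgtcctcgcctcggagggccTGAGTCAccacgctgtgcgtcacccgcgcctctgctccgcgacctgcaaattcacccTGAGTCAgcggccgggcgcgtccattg

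Several repressor genes of the clock rose. The circadian clock is a loop in which BMAL1 and CLOCK bind E-boxes and drive their own repressors. Of 10 repressor genes 5 were higher and none lower (median 0.80), and of 8 activators and outputs 1 was higher and none lower (median 0.31). Ciart (chr3:95878503-95882251, minus strand), the repressor CHRONO whose E-boxes are printed above, went from 2.13, 0.468 and 0.549 to 33.5, 42.5 and 54.9 CPM, 5.37 ± 0.37 (adjusted p = 9.65e-06). Cry2 rose from 30.3, 19.7 and 23.7 to 82.6, 96.1 and 114 CPM, 1.99 ± 0.20 (adjusted p = 0.00013). Per1 had 75.3, 24.7 and 38.5 CPM at rest and 159, 149 and 224 after running, 1.94 ± 0.31 (adjusted p = 0.00241), and Per2 rose by 0.87 ± 0.16 (adjusted p = 0.00585). Bhlhe40, another E-box repressor, rose by 1.32 ± 0.13 (adjusted p = 9.83e-05). The gene of BMAL1, Arntl, had -0.53 ± 0.31 (adjusted p = 0.366), and Nr1d1, which encodes REV-ERB alpha, -0.31 ± 0.18 (adjusted p = 0.357). Usp2, a deubiquitinase of clock proteins, rose by 1.46 ± 0.18 (adjusted p = 0.000344). The hour of sampling and the run cannot be told apart for these genes.

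Genes of several cytosolic chaperones rose. The heat shock list had 8 of 34 members higher and none lower (median 0.19). Hspa1a (chr17:34969190-34972156, minus strand) and Hspa1b, inducible HSP70 genes that are nearly identical and whose reads may be split between them, went from 10.6, 10.6 and 11.2 to 96.9, 47.8 and 61.7 CPM and from 9.69, 8.49 and 8.30 to 98.6, 44.3 and 57.4 CPM. Their differences were 2.67 ± 0.26 (adjusted p = 9.4e-05) and 2.92 ± 0.29 (adjusted p = 0.0001), and Exe_WT replicate 3 was the highest library for both. Hsp90aa1, the inducible HSP90, rose by 1.75 ± 0.19 (adjusted p = 0.000164). The HSP40 cochaperones Dnajb1 and Dnaja1 rose by 1.92 ± 0.24 (adjusted p = 0.000502) and 1.25 ± 0.13 (adjusted p = 0.000141). By contrast the mitochondrial chaperonin Hspd1 had 0.16 ± 0.09 (adjusted p = 0.354).

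Oxidant and metal defence was limited to a few genes. In the NRF2 and antioxidant list 2 of 24 were higher (8.33%) and 1 lower (4.17%), against 4.36% and 4.17% of all genes. Nfe2l2, which encodes NRF2 itself, went from 45.8, 40.8 and 33.8 to 88.5, 95.7 and 115 CPM, 1.31 ± 0.23 (adjusted p = 0.00399). Srxn1 (sulfiredoxin, which repairs overoxidised peroxiredoxins) rose from 29.1, 25.5 and 28.4 to 122, 139 and 153 CPM, 2.32 ± 0.24 (adjusted p = 0.000144). In the list of metallothionein and zinc transport genes 3 of 8 were higher (37.5%, against 4.36% of all genes) and none lower (median 0.58). Metallothioneins, small zinc-binding proteins, rose with wide errors: Mt1 from 49.8, 43.4 and 23.3 to 284, 308 and 241 CPM, 2.84 ± 0.60 (adjusted p = 0.0117), and Mt2 by 3.54 ± 0.76 (adjusted p = 0.0129). Without Sed_WT replicate 4, which had the lowest levels of both, their adjusted p was 0.0506 and 0.0557, and no member of that list passed. The glucocorticoid target list, to which Mt1, Mt2 and Per1 also belong, had 6 of 19 members higher and none lower. Their summed level at rest was 2528 CPM in Sed_WT replicate 1, against 1187 and 1367 in the other sedentary libraries and 2418 to 2541 after running. Without Sed_WT replicate 1, 9 passed as higher and the median went from 0.20 to 0.71, and it was 0.07 without Sed_WT replicate 3 and 0.09, with 4 higher, without Sed_WT replicate 4. One member was lower without Sed_WT replicate 3 or Exe_WT replicate 5. The receptor gene Nr3c1 rose by 0.79 ± 0.15 (adjusted p = 0.00536).

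Pdk4 and several genes of lipid handling fell. Pdk4 (chr6:5483351-5496309, minus strand), the kinase that shuts the pyruvate dehydrogenase complex and so spares glucose, had 1661, 1364 and 1189 CPM at rest and 166, 177 and 304 after running, -2.70 ± 0.27 (adjusted p = 0.0001). The groups lay far apart, and Exe_WT replicate 5 was the highest exercised library. Angptl4 (chr17:33773750-33781830, minus strand), the secreted inhibitor of lipoprotein lipase, went from 14.2, 39.9 and 24.4 to 1.98, 3.01 and 3.05 CPM, -3.28 ± 0.54 (adjusted p = 0.00281). Ucp3, a mitochondrial carrier of the uncoupling family, fell by 0.85 ± 0.17, from 436, 354 and 297 to 201, 215 and 189 CPM (adjusted p = 0.00764). Acyl-CoA thioesterases Acot1 and Acot2 fell by 1.74 ± 0.31 (adjusted p = 0.00412) and 1.58 ± 0.30 (adjusted p = 0.0059). With a block on replicate number Ucp3, Acot1 and Acot2 did not pass (adjusted p = 0.0799, 0.0514 and 0.0583). Lipe, the hormone-sensitive lipase, fell by 0.93 ± 0.12 (adjusted p = 0.000633). Of 32 genes of fatty acid uptake and oxidation 3 were lower (9.38%, against 4.17% of all genes) and none higher. Of the same 32, 29 had a negative log2 fold change. Their median was -0.21, or -0.07 without Sed_WT replicate 3 and -0.33 without Sed_WT replicate 4. In the lipid droplet list 2 of 21 rose (9.52%, against 4.36% of all genes) and 2 fell (9.52%, against 4.17%). Those that rose were genes of the droplet proteins Hilpda (by 1.85 ± 0.17, adjusted p = 6.39e-05) and Cidea (by 2.21 ± 0.45, adjusted p = 0.0091, but 0.0599 with a block on replicate number).

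**Figure D3:**
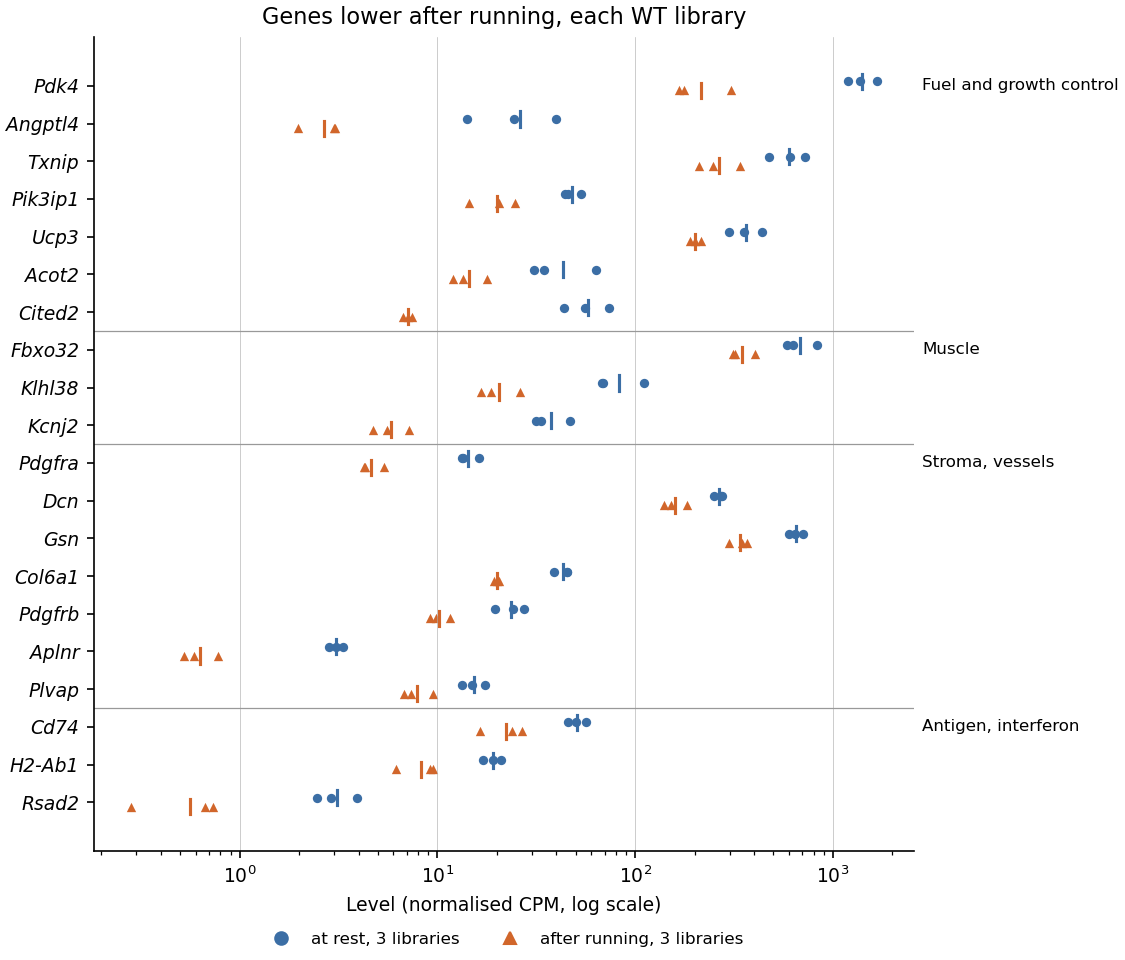
Level of 20 genes that passed as lower, on a log axis of normalised CPM, with blue circles for the 3 sedentary WT libraries, orange triangles for the 3 exercised ones and short bars for their means. The groups overlap for none of the 20, as for 581 of all 584 genes that passed as lower. Pdk4 drops from at least 1189 to at most 304 CPM.

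Glucose handling changed in single genes rather than along the pathway. Of 24 genes of glucose uptake and insulin signalling 3 were higher and 3 lower, and of 27 glycolysis and glycogen genes 1 was higher and none lower. Hk2 (chr6:82725025-82774454, minus strand), the hexokinase that traps glucose in muscle, went from 249.8, 197 and 216 to 432, 466 and 608 CPM, 1.18 ± 0.14 (adjusted p = 0.000256). Irs2, an insulin receptor substrate, rose from 18.1, 11.7 and 10.4 to 60.9, 58.7 and 139 CPM, 2.68 ± 0.45 (adjusted p = 0.00308), with Exe_WT replicate 5 above the other exercised libraries. Txnip, which limits glucose uptake, fell by 1.18 ± 0.18 (adjusted p = 0.00183) and Pik3ip1, an inhibitor of PI3 kinase, by 1.26 ± 0.17 (adjusted p = 0.000656). Ppargc1a, the coactivator PGC-1 alpha often followed after exercise, had 59.2, 31.8 and 40.3 CPM at rest and 50.1, 65.4 and 176 after running. Its difference of 1.15 ± 0.43 did not pass (adjusted p = 0.132), and the groups overlapped, with Exe_WT replicate 5 far above the rest. Without that library the difference was 0.40 (adjusted p = 0.548).

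A few genes of synthesis and transport rose. Lss, which encodes an enzyme of sterol synthesis, rose by 1.34 ± 0.27 (adjusted p = 0.00921). In the sterol and fatty acid synthesis list 2 of 22 were higher (9.09%, against 4.36% of all genes) and none lower (median 0.24). Slc7a5, the large neutral amino acid carrier LAT1, rose from 2.47, 1.34 and 1.92 to 10.9, 12.6 and 11.6 CPM, 2.61 ± 0.23 (adjusted p = 5.08e-05), and Slc7a1, the cationic carrier, by 1.33 ± 0.21 (adjusted p = 0.00236). Gpt2, the mitochondrial alanine transaminase, went from 206, 158 and 189 to 394, 401 and 386 CPM, 1.09 ± 0.19 (adjusted p = 0.00322). Amino acid transport and branched-chain catabolism had 3 of 22 members higher (13.6%) and 1 lower (4.55%, against 4.17% of all genes), with 5 higher without Sed_WT replicate 1. The lowest p-values of all genes belonged to Mnt, a MAX-binding antagonist of MYC (8.52, 8.76 and 9.20 to 43.4, 40.8 and 41.4 CPM, 2.25 ± 0.10, adjusted p = 6.2e-07), and Coq10b, a coenzyme Q binding protein (7.56, 7.76 and 5.90 to 60.3, 53.5 and 61.7 CPM, 3.05 ± 0.14, adjusted p = 6.2e-07). For both, the spread within each group was small beside the gap.

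Signals that control muscle mass and repair went both ways. Fbxo32 (chr15:58175879-58214932, minus strand), the atrophy ubiquitin ligase atrogin-1, fell from 829.6, 585 and 626 to 320.4, 313 and 405 CPM, -0.97 ± 0.17 (adjusted p = 0.00409). Klhl38, a Kelch-like protein gene expressed in muscle, went from 111, 68.8 and 68.3 to 16.5, 18.7 and 26.3 CPM, -2.01 ± 0.27 (adjusted p = 0.000694). Both share exon bases with the antisense gene Gm15943 (186 and 1446 bases), which had -2.16 ± 0.50 (adjusted p = 0.0183, but 0.0641 without Sed_WT replicate 1, 0.0794 without Exe_WT replicate 3 and 0.0627 without Exe_WT replicate 4), and the strand setting of the counting is not given. Among atrophy and FoxO genes as a whole 1 of 22 was higher and 2 lower. Foxo1 was the higher one, 1.76 ± 0.41 (adjusted p = 0.0183), but this was lost without Sed_WT replicate 3 (0.0705), without Sed_WT replicate 4 (0.0588) and without Exe_WT replicate 5 (0.0624). It was also lost when only the 6 WT libraries were fitted (0.0673). Of 17 tested satellite cell and myogenic regulator genes 4 were higher (23.5%, against 4.36% of all genes) and 1 lower. Of the same 17, 8 were positive and 9 negative (median -0.01). The satellite cell genes Pax7 and Myf5 had 16 to 27 and 17 to 22 counts at rest, and 13 to 16 and 8 to 18 after running. The myogenic factor gene Myog rose by 1.84 ± 0.30 (adjusted p = 0.00244), Hes1, the Notch target, by 1.56 ± 0.26 (adjusted p = 0.0026) and Id1 by 1.22 ± 0.18 (adjusted p = 0.00158). Smad3, which carries the TGF-beta signal to the nucleus, rose by 1.28 ± 0.12 (adjusted p = 5.9e-05), and the SMAD corepressors Skil and Tgif1 by 2.44 ± 0.18 (adjusted p = 1.38e-05) and 2.58 ± 0.25 (adjusted p = 9.4e-05), within a list in which 4 of 28 were higher and 3 lower. None of that list was lower without Sed_WT replicate 3 or Exe_WT replicate 3, and 1 without any other WT library.

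In each of the structural and excitation lists 3 members or fewer passed. Xirp2, an actin-binding protein of the Z-disc region that marks remodelling, went from 539, 716 and 567 to 1006, 941 and 1269 CPM, 0.82 ± 0.16 (adjusted p = 0.00687). In its list, of Z-disc and mechanical stress genes, 3 of 25 were higher (1 without Sed_WT replicate 1 or 3) and none lower. The other 2 higher ones were the Xirp2 relative Xirp1, which rose by 1.32 ± 0.35 (adjusted p = 0.0366), and Otud1, by 2.59 ± 0.66 (adjusted p = 0.0294). Otud1 encodes a deubiquitinase and not a structural protein of the Z-disc. Otud1 lost its call when any 1 of the 6 libraries was left out (adjusted p = 0.0558 to 0.119), and Xirp1 without Sed_WT replicate 1 or 3 or Exe_WT replicate 4 or 5 (0.0625 to 0.136). Trdn, the triadin that anchors the calcium release complex, was the 1 of 32 calcium handling genes to rise, from 192, 220.1 and 194 to 387, 376 and 732 CPM, 1.30 ± 0.26 (adjusted p = 0.00759). Kcnj2, the inward rectifier that sets the resting potential, fell from 33.4, 47.0 and 31.7 to 5.59, 4.70 and 7.21 CPM, -2.68 ± 0.28 (adjusted p = 0.000139), 1 of 2 ion channel genes among 19 that fell (1 without Sed_WT replicate 4 or Exe_WT replicate 4). The other was Kcnj11, a subunit of the ATP-sensitive potassium channel, which fell by 0.50 ± 0.11 (adjusted p = 0.0144, but 0.0572 and 0.0546 without those libraries). Erfe, erythroferrone, also called myonectin, rose from 0.962, 0.869 and 0.755 to 3.82, 5.14 and 4.61 CPM, 2.38 ± 0.35 (adjusted p = 0.00143), and shares 357 exon bases with Ilkap. Cntfr, a receptor of ciliary neurotrophic factor, went from 19.99, 25.2 and 22.9 to 92.3, 86.7 and 75.9 CPM, 1.903 ± 0.15 (adjusted p = 2.13e-05). Cited2, a competitor of hypoxia-inducible factors for their coactivator, had 56.0, 73.4 and 43.6 CPM at rest and 7.14, 6.68 and 7.44 after running, -3.02 ± 0.18 (adjusted p = 3.63e-06), the lowest p of all genes that fell.

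Many connective tissue genes were lower after running. Fibro-adipogenic progenitors are the resident stromal cells that make muscle matrix, and of 13 tested markers 8 were lower, none higher and all 13 negative (median -0.73). Pdgfra (chr5:75152292-75198215, plus strand), their defining receptor, fell from 13.3, 16.2 and 13.5 to 4.31, 4.26 and 5.36 CPM, -1.63 ± 0.14 (adjusted p = 4.08e-05). Dcn (decorin) went from 250.1, 273 and 276 to 141, 152 and 183 CPM, -0.75 ± 0.13 (adjusted p = 0.00326), and Gsn (gelsolin) from 645, 599 and 707 to 297, 366 and 348 CPM, -0.95 ± 0.15 (adjusted p = 0.00177). The groups overlapped for none of these 3, as for nearly all genes that passed. Of 31 extracellular matrix genes 15 were lower and 2 higher (median -0.77); 9 were lower without Sed_WT replicate 3, 8 without Exe_WT replicate 3 and 9 without Exe_WT replicate 4. Col6a1, a chain of collagen VI, fell from 45.3, 45.3 and 38.8 to 19.4, 20.4 and 19.9 CPM, -1.11 ± 0.15 (adjusted p = 0.000704), and the gelatinase Mmp2 by 0.87 ± 0.15 (adjusted p = 0.00322). Those that rose were proteases of the matrix, Adamts9 from 3.71, 5.62 and 3.77 to 25.7, 22.3 and 37.6 CPM, 2.70 ± 0.30 (adjusted p = 0.000229), and Adamts4 from 0, 0.201 and 0.206 to 1.48, 0.881 and 2.23 CPM, 3.41 ± 0.65 (adjusted p = 0.00621). Adamts4 had no more than 3 counts in any sedentary library. It met the filter on low counts only through the exercised libraries, in which it is high, so its call follows in part from the filter. In bulk tissue, fewer cells of a type and less RNA per cell cannot be told apart.

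Vessel genes were split. In the list of endothelial and angiogenic genes 6 of 27 were higher and 3 lower (5 without Sed_WT replicate 1), and of 16 mural cell genes 4 were lower and none higher (median -0.22, or -0.40 without Sed_WT replicate 1 and -0.13 without Sed_WT replicate 3). Aplnr, the apelin receptor, fell from 2.82, 3.34 and 3.09 to 0.778, 0.588 and 0.521 CPM, -2.27 ± 0.21 (adjusted p = 7.18e-05), Plvap, the fenestral diaphragm protein, by 0.95 ± 0.17 (adjusted p = 0.00409) and Tek, the angiopoietin receptor, by 0.97 ± 0.18 (adjusted p = 0.0055). Pdgfrb, the pericyte receptor, went from 19.6, 27.3 and 24.2 to 9.90, 9.18 and 11.5 CPM, -1.21 ± 0.13 (adjusted p = 0.000199). In the opposite direction, Thbd (thrombomodulin) rose from 14.4, 18.1 and 16.5 to 47.5, 43.9 and 49.6 CPM, 1.52 ± 0.18 (adjusted p = 0.000356), the matricellular Thbs1 by 2.47 ± 0.34 (adjusted p = 0.000743) and the endothelial factor gene Sox17 by 1.16 ± 0.15 (adjusted p = 0.000608). Of 3 pan-endothelial genes, Cdh5 had -0.09 ± 0.14 (adjusted p = 0.797), Kdr -0.95 ± 0.34 (adjusted p = 0.116) and Pecam1 -0.47 ± 0.16 (adjusted p = 0.1). None of them passed, though the groups of Pecam1 did not overlap, as for 27.5% of all genes. Under single alternatives 2 of them did pass as lower. These were Kdr without Sed_WT replicate 1 (-1.23, adjusted p = 0.0375) and Pecam1 with total counts as the scaling (-0.58, adjusted p = 0.033). A negative log2 fold change was seen in 17 of the 27 endothelial and angiogenic genes. The tested vessel genes thus held passing rises beside passing falls.

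Several antigen presentation and interferon genes fell. Of 17 tested genes 8 were lower and none higher (median -0.43). Cd74, the invariant chain of MHC class II, fell from 56.3, 50.2 and 45.9 to 23.8, 26.9 and 16.4 CPM, -1.18 ± 0.19 (adjusted p = 0.00234), and the class II chain H2-Ab1 from 21.1, 19.2 and 16.9 to 9.19, 9.55 and 6.17 CPM, -1.20 ± 0.22 (adjusted p = 0.00479). Rsad2 (viperin, an interferon-induced antiviral enzyme) went from 2.47, 3.95 and 2.88 to 0.283, 0.735 and 0.669 CPM, -2.45 ± 0.31 (adjusted p = 0.000464). Macrophage markers gave 2 of 14 lower (1 without any of the 6 libraries) and none higher, with 12 negative and a median of -0.56. The scavenger receptor Cd163 was one of them, -0.93 ± 0.19 (adjusted p = 0.0084), and the receptor Csf1r, which these cells need to survive, had -0.45 ± 0.17 (adjusted p = 0.139). Summed marker levels per library were 81.5 to 117 CPM at rest and 55.9 to 68.3 CPM after running for macrophages and 1206 to 1288 CPM at rest and 646 to 739.8 CPM after running for fibro-adipogenic progenitors. Their part in the falls of matrix and class II genes was not tested. Cytokine and myokine genes as a list gave 2 of 22 higher and 4 lower, or 2 lower without Sed_WT replicate 3 or without any 1 exercised library, and the IL-6 receptor and SOCS list 1 of 13 higher, the kinase gene Pim1 (10.8, 24.3 and 17.2 to 71.3, 71.8 and 75.0 CPM, 2.06 ± 0.29, adjusted p = 0.000978).

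Most of the contractile and mitochondrial programme did not pass. No member passed among 15 fast fibre genes, 14 slow fibre genes, 13 mitochondrially encoded genes, 45 nuclear genes of the respiratory chain, 15 citric acid cycle genes and 33 cytosolic ribosomal protein genes in edgeR. Their medians were 0.18, 0.20, 0.10, -0.03, 0.03 and -0.13. These medians were small and several depended on 1 library. That of the slow fibre genes was -0.07 without Sed_WT replicate 4, that of the fast fibre genes 0.08 without Sed_WT replicate 3, and those of the mitochondrially encoded and respiratory chain genes -0.01 and 0.06 without Exe_WT replicate 5. With total counts as the scaling, those of the mitochondrially encoded and citric acid cycle genes turned negative. The ribosomal median stayed negative under every alternative, from -0.24 with total counts to -0.08 without Exe_WT replicate 5. Of the 33 ribosomal protein genes 29 were negative, and 11 were lower without overlap of the groups, as were 14.5% of all genes. All 15 fast fibre genes had a positive log2 fold change. Proteasome genes gave 1 of 32 lower, and autophagy and lysosome genes 1 of 33 lower. The gene taken to be Feimin, B230219D22Rik, an assignment from general knowledge, had 21.7, 24.1 and 21.96 CPM at rest and 24.7, 21.5 and 30.1 after running in these WT mice, 0.17 ± 0.16 (adjusted p = 0.608), and the groups overlapped.

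**Figure D4:**
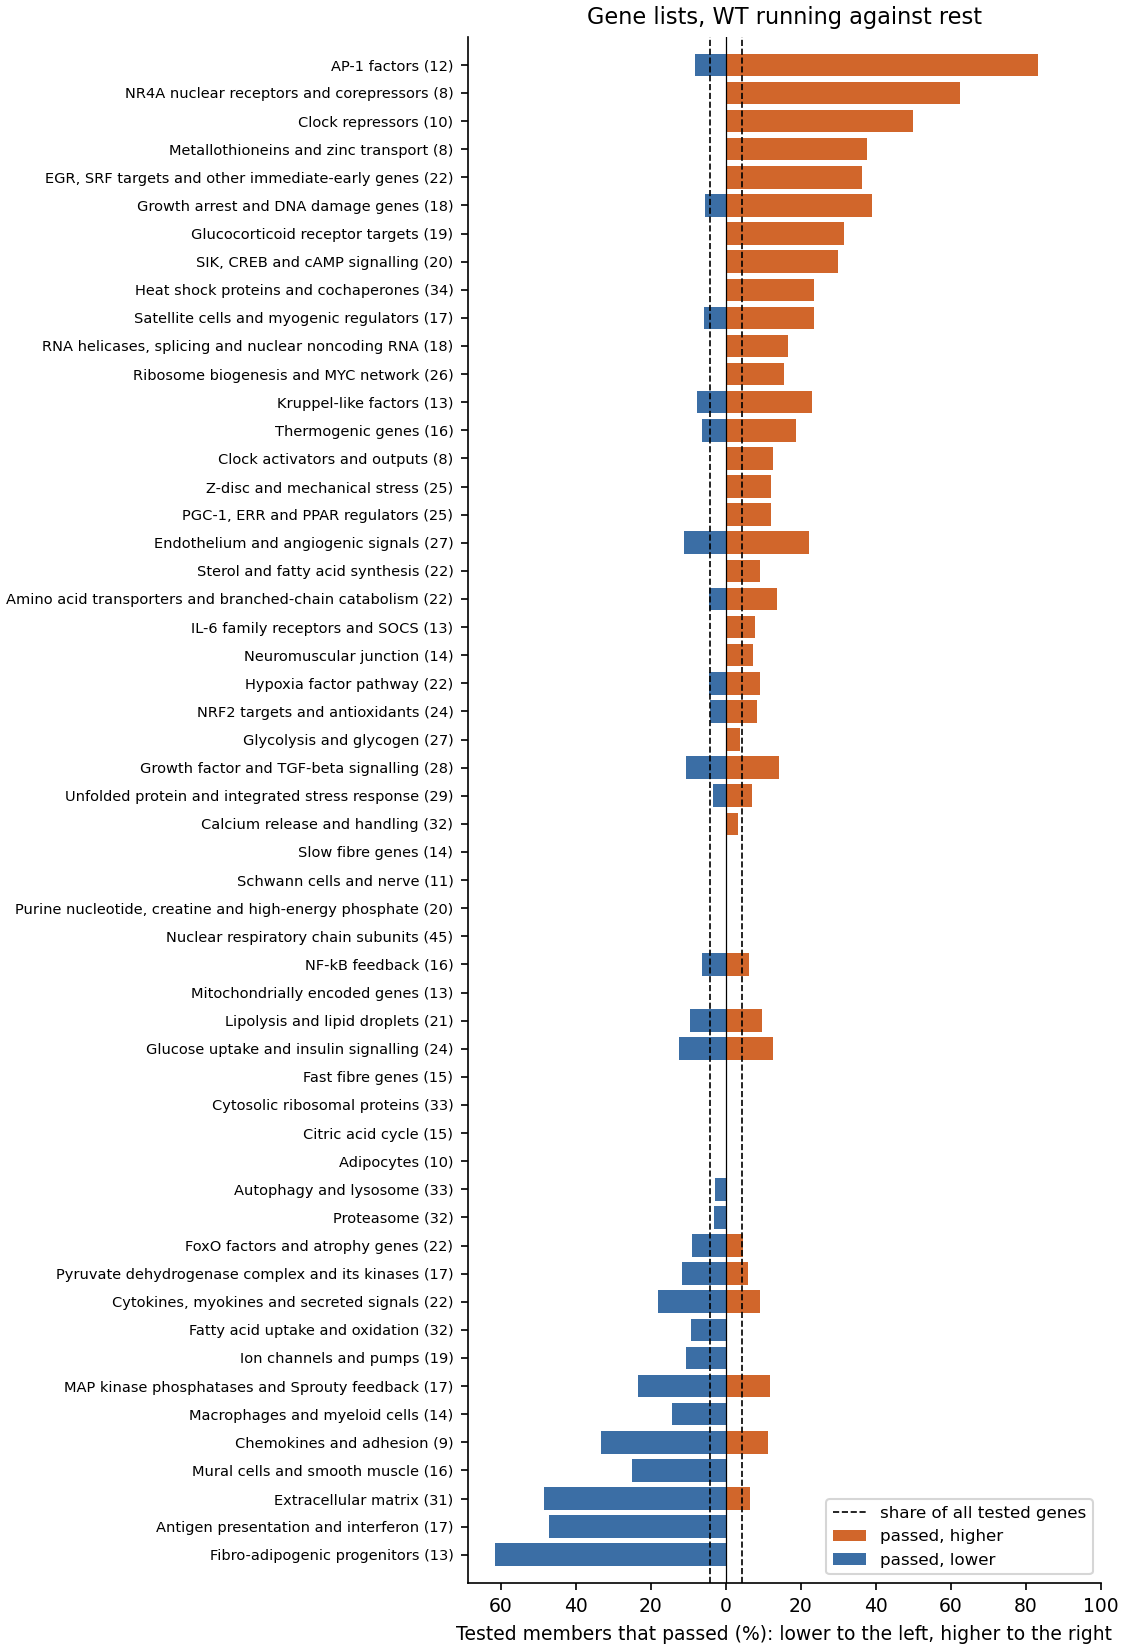
Bars give the percentage of each list's tested members that passed as higher (orange, to the right) or lower (blue, to the left), with the number tested in parentheses and lists of fewer than 8 tested members left out. Dashed lines mark the shares of all tested genes, 4.36% higher and 4.17% lower. AP-1 factors reach the highest share on the right and fibro-adipogenic progenitor markers the highest on the left, while fibre and respiratory chain lists are empty.

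The genes that changed were described by length, level and type, without a test. Protein-coding genes more than 4-fold higher (99 genes) had a median span of 12996 bases from first to last annotated base, against 24496.5 for all 11690 tested protein-coding genes and 19471 for the 560 lower ones. Genes more than 4-fold lower (26) also had a short median span, 12780.5 bases. Calls thinned out among the most abundant genes, with 1 call in the 81 genes above 1000 CPM (1.23%) and 9.26% called between 1 and 10 CPM. Antisense RNAs had 17 higher and 3 lower calls among 146 (13.7%), processed pseudogenes 23 and 11 among 1611 (2.11%), for which reads may belong to the parent gene. Among the antisense RNAs, A930016O22Rik, which shares 451 exon bases with Ckm, fell from 2.82, 4.55 and 3.36 to 0.636, 0.588 and 0.595 CPM, -2.54 ± 0.53 (adjusted p = 0.0103). This gene met the filter on low counts only through the sedentary libraries, in which it is high, so its call follows in part from the filter.

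Some genes were without a single count in one group. C2cd4b, Chrna9, Arg1, Gnat1 and Bex4 had 0 counts in all 3 sedentary libraries and passed as higher. They met the filter on low counts only through the exercised libraries, in which they are high, and Cpt1c, below, only through the sedentary ones, so their calls follow in part from the filter. With a floor of 3 counts per library, C2cd4b (42, 40 and 26 counts after running) was at least 12.8-fold higher and Chrna9, a nicotinic receptor subunit (13, 16 and 32 counts), at least 7.30-fold. Arginase gene Arg1 was at least 6.10-fold higher, but its adjusted p of 0.0382 became 0.0555 to 0.102 when any 1 of the 6 libraries was left out. Gnat1, a rod transducin subunit, was at least 5.26-fold higher and Bex4 at least 5.21-fold. In the other direction Cpt1c, a brain-type carnitine palmitoyltransferase, had 16, 13 and 16 counts at rest and 0 in each exercised library, at least 4.68-fold lower. Bex4 and Cpt1c had 0 CPM on average in both MKO groups. In 104 tested genes 1 WT library had 0 counts beside at least 10 in both others of its group, such as Adgre1 with 0, 13 and 13 after running, and none of the 104 passed.

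The running response of WT muscle was set beside that of MKO muscle, which shares no library with it. Both came from 1 model with a shared estimate of the spread, and genes were filtered on the WT libraries alone. In MKO 600 genes passed (4.29%), 334 higher and 266 lower. Of the 611 genes higher in WT, 601 had a positive and 303 a passing rise in MKO, and of the 584 lower in WT, 576 had a negative and 208 a passing fall. No gene passed in opposite directions. Since these genes were picked by their WT values, smaller MKO values are built into the choice, and the test of the difference itself passed for no gene in edgeR (0%, with 517 at an unadjusted p under 0.05; 1 without Sed_WT replicate 1), 2 in DESeq2 and 3 in limma-voom. Its lowest p belonged to Lgals8 (galectin-8, which detects damaged vesicles), at 8.11, 8.09 and 8.44 CPM at rest and 1.27, 0.441 and 1.56 after running in WT, -2.90 ± 0.34 (adjusted p = 0.000268), against 0.49 ± 0.25 in MKO. Its difference of 3.39 ± 0.42 had an adjusted p of 0.0564, and 155 of its exon bases are shared with Heatr1. Egr1 had 4.91 ± 0.37 in WT and 1.91 ± 0.33 in MKO, with an adjusted p of the difference of 0.239.

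**Figure D5:**
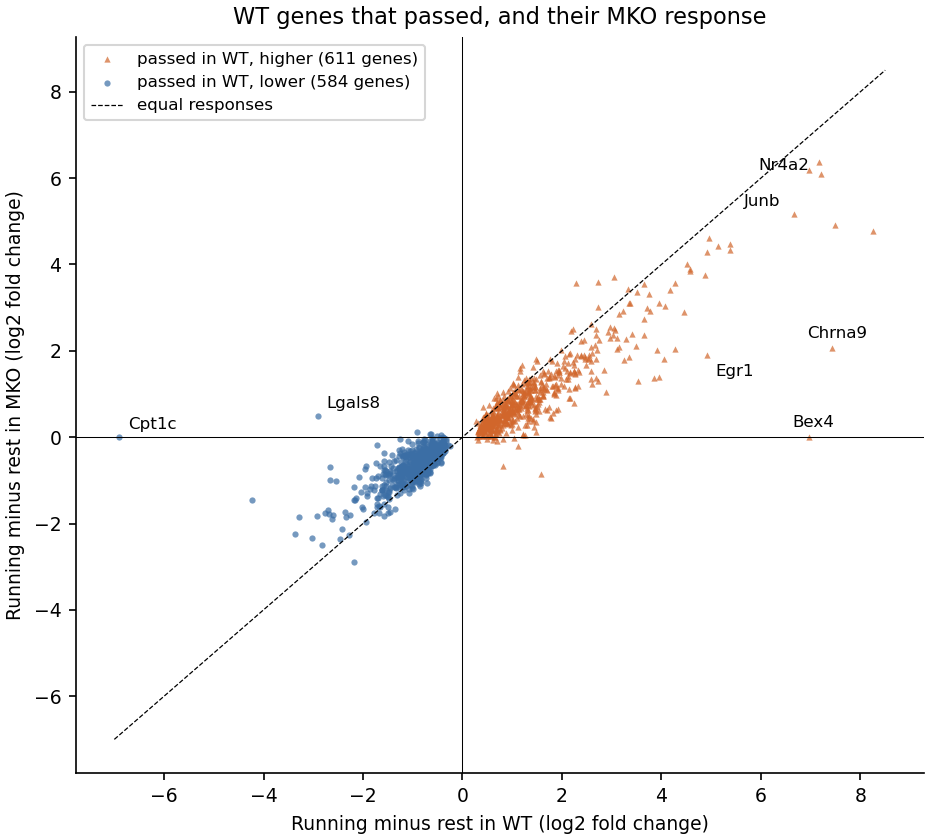
Log2 fold change of running minus rest in WT (x) against that in MKO (y) for the 611 higher (orange triangles) and 584 lower (blue circles) genes that passed in WT, with the dashed line for equal responses. Nearly all points share their sign, 601 of 611 and 576 of 584, and Lgals8 lies off the line. Cpt1c and Bex4, without a count in any MKO library, are drawn at 0 on the y axis.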

How the data were processed

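Gastrocnemius RNA was sequenced on a DNBSEQ instrument, per the labels' protocols. They mention 18 prepared libraries; 12 entered the work here. The authors deposited raw counts per Ensembl gene, used as they are. Tools listed in the submitters' processing notes are HISAT2 2.2.1, StringTie 2.1.4, SAMtools 1.9, FastQC 0.12.1 and DESeq2 1.40.2, with builds mm10 and GRCm38.p6. Which of them made the counts, and the strand setting, are not given in the sources here. Positions and symbols were read from GENCODE M21 (GRCm38), which named 42548 of 43432 identifiers. The 884 others held 0.0875% of the counts.

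Counts were fitted with edgeR 4.0.16 in R 4.3.3 (TMM factors, quasi-likelihood, 1 mean for each of 4 groups over 12 libraries, 8 residual degrees of freedom). The biological coefficient of variation was 15.0%. Genes needed 10 counts in 3 of the 6 WT libraries and passed at an adjusted p under 0.05. The SE was derived from the F statistic. Alternatives were DESeq2 1.42.0, limma-voom 3.58.1, other scalings and filters, WT libraries alone, a block on replicate number and omission of each WT library. Leaving out genes with an isolated 0 was added after the data were seen. In simulated counts for this comparison (13781 genes) 75.5% of 2-fold and 97% of 4-fold changes were found by edgeR, with 11 false calls, and equally by DESeq2, with 22. A chi-square check found no duplicate libraries. The comparison, members and gene lists were chosen with earlier results of these data known. Named genes were the 25 largest changes each way (non-overlapping, at least 1 CPM), the 15 lowest p-values each way, up to 6 per list, the 10 most abundant, the 10 largest CPM changes each way and preset markers. Not all of them are described. Genes outside the rule (Jun, Myc, Srf, Nr1d1, Hspd1 and Adamts4) were chosen after their values were seen. Plots used matplotlib 3.10.9 under Python 3.11.15.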

Additional observations from a re-analysis of the deposited data

How the results depend on the processing

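The 1195 calls between running and rest stayed within 1.5 times that number under every alternative tried except the replicate block. The number was 1092 with DESeq2, 1170 with limma-voom, 1198 with median-of-ratios scaling, 1347 with total counts, 1225 without mitochondrially encoded genes, 1078 with the 6 WT libraries alone and 1013 without a filter. Of the 1195 genes, 979 were kept by DESeq2, 1142 by limma-voom and 933 with the 6 WT libraries alone. Leaving out 1 WT library gave 797 to 974 calls, of which higher ones numbered 458 to 532 and lower ones 339 to 492, and 2-fold calls 466 to 558. The deviations of same-numbered WT libraries from their group means correlated at 0.0192 (replicate 3) and -0.0208 (replicate 4). In groups of 3, such values cannot show whether libraries with the same number share a batch, and the labels name no batch. With the replicate block 629 genes passed, 375 higher and 254 lower, and Ppargc1a joined them (0.67, adjusted p = 0.0242). Of the lists, lower members then numbered 9 for extracellular matrix, 3 for antigen presentation, 2 each for mural cells and cytokines, 1 for MAP kinase feedback and 0 each for fatty acid oxidation and TGF-beta signalling. Higher ones numbered 1 for Z-disc and mechanical stress and 0 for metallothioneins. The difference between the MKO and WT responses passed for 0 genes in edgeR, for 1 with total counts, 1 without mitochondrially encoded genes, 2 with DESeq2, 3 with limma-voom, 1 with the filter of 1 CPM, 1 without genes that have an isolated 0, and 0 to 1 with a WT library left out. The cause was not tested. Lists of which 1 member passed in a direction also moved: that member was lost without Exe_WT replicate 3 (lower Kruppel-like factor), without Sed_WT replicate 3 or any exercised library (lower growth arrest gene), without any WT library but Sed_WT replicate 4 (lower NRF2 gene), without Sed_WT replicate 3 (higher clock activator or output), without Sed_WT replicate 1 or Exe_WT replicate 3 (lower amino acid gene) and without Sed_WT replicate 3 or 4 or Exe_WT replicate 4 or 5 (higher glycolysis gene). A second one passed without Sed_WT replicate 1 (clock), without Exe_WT replicate 3 (IL-6 receptors and SOCS) and without Exe_WT replicate 5 (calcium handling and autophagy). Of 107 described genes that passed, 86 passed under every alternative in which they were tested, none reversed, 8 were lost without at least 1 library and 18 under the replicate block. Those 18 were Gnat1, Mmp2, Gpt2, Cpt1c, Bex4, Acot1, Acot2, Tek, Trdn, Ucp3, Cd163, Cidea, Lss, Mt1, Mt2, Gm15943, Otud1 and Xirp1. Genes near the floor of 3 counts (0.204 CPM at rest, 0.219 after running) carry the widest errors: the median SE was 0.34 (log2) below 1 CPM and 0.12 between 10 and 100 CPM.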
